A study of Mus musculus with 6 samples.

Results

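The 7 genes described here, H2-Q4, H2-Q6, H2-Q7, H2-T22, H2-T23, H2-T24 and H2-M3, are non-classical (class Ib) genes of the mouse major histocompatibility complex. They were taken by symbol from the 55418 gene symbols of the count table, and each symbol was found once. The genes were selected on their counts in this same comparison, whose results were in view when the list was drawn up. Their differences between the groups are therefore given as a description, with no test. The RNA came from MOC2, a mouse carcinoma line used as a model of head and neck squamous cell carcinoma without papillomavirus. The 6 libraries of polyadenylated RNA comprised 3 from control CRISPR cells and 3 from cells carrying an EphA4 knockout. All cells were untreated, were passaged 2 times after thawing and carry 1 batch label. The knockout cells are 1 clone, named H3, so a difference between the groups can also be one between that clone and the control cells, and the design cannot tell these apart. Whether the 3 samples of each group came from separate cultures is not in the labels, and every p-value reflects only how much these samples varied, which may be technical.

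Class I molecules are surface proteins made of a heavy chain, the light chain beta-2 microglobulin and, in most cases, a short peptide. The classical heavy chains, encoded by H2-K1 and H2-D1, are highly variable and show peptides to cytotoxic T cells. Class Ib heavy chains vary little and have narrower roles. H2-T23 encodes Qa-1, which presents leader peptides of other class I chains to an inhibitory receptor of natural killer cells. H2-M3 presents peptides that begin with formylated methionine, as bacterial and mitochondrial proteins do. H2-T22 is recognised by some gamma delta T cells, H2-Q7 encodes a Qa-2 protein that is attached to the membrane by a lipid anchor, and H2-Q6 and H2-Q4 lie in the same Q cluster. Class I genes are known to be raised by interferons and by the transactivator NLRC5, through short elements just upstream of their start.

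All 7 genes lie on chromosome 17 in the GENCODE M21 annotation. In the RefSeq gene order H2-Q5 lies between H2-Q4 and H2-Q6, H2-Q7 comes next to H2-Q6, H2-T24, H2-T23 and H2-T22 follow one another, and H2-M3 stands apart. RefSeq promoter entries on GRCm38.p6 matched 6 of the 7 genes, and H2-T24 had none. The sequences are shown because class I genes respond to interferon and NLRC5 through upstream elements. The exact letters of an interferon-type and a kB element of H2-K1 occur in some of these genes and not in others. No search was made for the whole element through which NLRC5 acts. The 250 bases before each annotated start were searched on both strands for 4 motifs. The interferon-type element (GTTTCACTTC) and the kB element (GGGGATTCCC) were read from the upstream window of H2-K1, the first of its 2 entries. The others were the core of a CRE-type element (TGACG) and the CCAAT box (CCAAT). Capitals mark the matches. The stretches of H2-Q4 (chr17:35379433-35379569, plus strand), H2-Q6 (chr17:35424667-35424803, plus strand), H2-Q7 (chr17:35439011-35439147, plus strand) and H2-M3 (chr17:37270102-37270233, plus strand) surround the interferon-type element, as does that of the classical gene H2-K1 (chr17:34000348-34000468, minus strand). For H2-T22 (chr17:36042743-36042992, minus strand) and H2-T23 (chr17:36032702-36032951, minus strand) all 250 bases before the start are given, 5′ to 3′.
H2-Q4: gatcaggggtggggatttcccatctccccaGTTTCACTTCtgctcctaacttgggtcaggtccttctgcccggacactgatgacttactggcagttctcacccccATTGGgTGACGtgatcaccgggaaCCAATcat
H2-Q6: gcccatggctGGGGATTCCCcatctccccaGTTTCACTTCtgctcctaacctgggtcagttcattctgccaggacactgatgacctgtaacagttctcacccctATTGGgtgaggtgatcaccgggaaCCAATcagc
H2-Q7: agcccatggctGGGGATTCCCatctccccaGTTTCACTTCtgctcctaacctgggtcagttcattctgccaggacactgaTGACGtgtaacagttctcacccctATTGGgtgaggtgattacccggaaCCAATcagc
H2-M3: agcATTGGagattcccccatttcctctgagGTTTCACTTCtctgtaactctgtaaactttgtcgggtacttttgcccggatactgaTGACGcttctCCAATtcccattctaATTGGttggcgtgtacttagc
H2-K1: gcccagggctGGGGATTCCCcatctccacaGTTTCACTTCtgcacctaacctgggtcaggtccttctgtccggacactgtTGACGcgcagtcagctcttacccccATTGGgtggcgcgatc
H2-T22: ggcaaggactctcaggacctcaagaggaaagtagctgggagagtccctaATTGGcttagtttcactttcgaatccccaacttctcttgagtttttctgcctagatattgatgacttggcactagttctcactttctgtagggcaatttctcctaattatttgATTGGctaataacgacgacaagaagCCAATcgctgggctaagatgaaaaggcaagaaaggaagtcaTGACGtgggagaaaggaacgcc
H2-T23: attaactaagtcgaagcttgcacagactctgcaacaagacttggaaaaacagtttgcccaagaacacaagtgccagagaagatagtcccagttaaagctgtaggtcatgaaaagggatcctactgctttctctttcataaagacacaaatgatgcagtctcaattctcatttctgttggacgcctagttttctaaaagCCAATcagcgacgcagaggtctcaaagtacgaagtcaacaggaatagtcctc

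The interferon-type element matched in 4 of the 6 genes, in the same orientation as in H2-K1 and 102 to 154 bases before the start. It was found in 0.11% of 32851 mouse promoter windows of the same length, with these genes among them. The match began 154 bases before the start in H2-Q4, 153 in H2-Q6, 114 in H2-Q7 and 102 in H2-M3, and it was also present in H2-D1. The kB element matched in 2 of the 6 genes, H2-Q6 and H2-Q7, against 0.0852% of all windows. The letters of both elements came from H2-K1, a related class I gene, so matches in its relatives could be foreseen. Nothing is read from either share. The CRE-type core matched in H2-Q4, H2-Q7, H2-T22 and H2-M3, against 17.8% of all windows, and the CCAAT box in all 6, against 33.8%. In H2-Q7, as in H2-K1, the core lay upstream of every CCAAT match, and in H2-M3 it lay between CCAAT matches. In H2-Q4 and H2-T22 it began 73 and 22 bases before the start, downstream of CCAAT matches at 79 and 63 bases. The core matches of H2-Q4 and H2-T22 thus lie at another place than that of H2-K1. No 2 of these motifs overlapped in the windows shown. H2-Q6 and H2-Q7 shared the longest identical upstream run among the 6 genes, 66 bases, while H2-Q4 shared 34 bases with H2-Q7 and H2-M3 at most 11 bases with any other of the 6. A match describes letters and is no measurement of binding. Only exact letters were searched, so a near variant of an element is not counted. H2-Q4 holds ggggatttccc, the kB letters with an added t, before its interferon-type match. H2-T22 holds gtttcacttt, the interferon-type letters but for the last. H2-M3 holds ggagattccc, the kB letters with an a in place of a g, before its interferon-type match. Other near variants may be present.

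**Figure D1:**
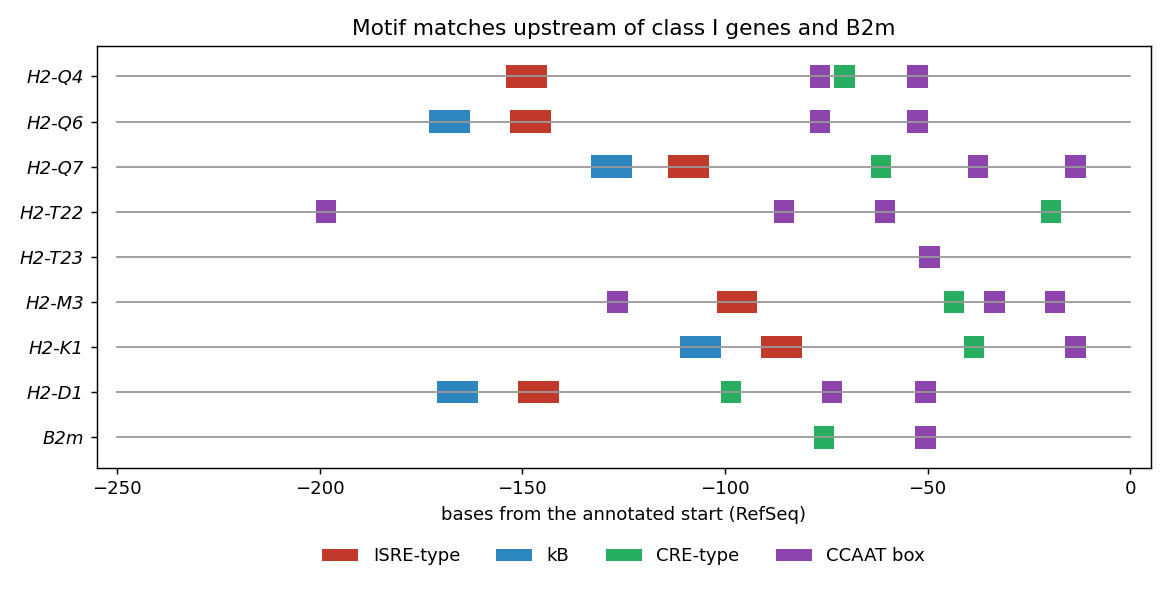
Matches to 4 motifs in the 250 bases before the annotated start of class I genes and B2m, drawn to scale as distance from the start in bases (x axis), 1 gene per line. Exact matches to the interferon-type element are drawn in 4 class Ib genes and in H2-K1 and H2-D1, and none is drawn for H2-T22 and H2-T23.

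The library totals ran from 35115926 to 41775031 counts, so that 1 count equalled 0.0240 to 0.0283 CPM (counts scaled to library size with TMM factors). Transcripts of the targeted gene, Epha4, were higher rather than lower in the libraries labelled EphA4 knockout, with counts of 1907, 2110 and 2250 in control, against 3483, 3815 and 3606 in knockout-labelled libraries (log2 fold change 0.86, SE 0.06, adjusted p = 2.1e-06 by the quasi-likelihood test of edgeR). Every direction given here is therefore that of the libraries so labelled, and counts over a whole gene do not show whether the edited sequence or the protein is made. EphA4 knockout replicate 3 stands apart: a chi-square test over genes gave 34.1 to 35.1 per degree of freedom against its 2 partners and 4.63 to 9.54 for the other pairs of a group. Values without that library are given for each of the 7 genes. Of the 7 squamous carcinoma markers checked, the epithelial genes Krt8, Krt18, Epcam and Cdh1 had 627 to 1637 CPM as group means. Epcam fell from 954 to 627 CPM, while Krt8, Krt18 and Cdh1 rose. The basal genes Krt5 and Trp63 had 0 to 2 counts per library. The basal gene Krt14 was low and fell, from 149, 127 and 148 counts in control to 90, 55 and 54. Of 15 leukocyte markers, 8 had 0 counts in all 6 libraries (Cd3e, Cd3d, Cd8a, Nkg7, Ncr1, Klrd1, Itgam and Adgre1), and the list summed to 2.28 to 2.62 CPM in control against 1.22 to 1.57 CPM in knockout-labelled libraries. Flt3, the 1 leukocyte marker tested, fell, with 251 counts over the control group against 72, and made up most of the sum in control. Ptprc had 14 against 41 counts, Klrc1 4 against 21, Cd79a 2 against 10 and Lyz2 0 against 4. Fibroblast markers summed to 13.7 to 14.5 and 1.79 to 1.85 CPM. The 3 of them that were tested fell, Pdgfra from 1074 to 170 counts over the group, Pdgfrb from 420 to 1 and Dcn from 97 to 0, while Lum was at 0 and Col1a2 had 4, 0 and 1 counts in control and 8, 11 and 10 under the knockout label. Pdgfrb and Dcn were tested only because of their control counts. Endothelial markers summed to 1.10 to 1.46 and 0.587 to 1.06 CPM. The part of these cell types in the differences below was not tested.

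Transcripts of the 7 class Ib genes were all lower in the knockout-labelled libraries, from 3.34-fold for H2-M3 to at least 1178-fold for H2-Q7. Their summed level was 358, 329 and 305 CPM in control replicates 1, 2 and 3 and 30.6, 27.2 and 26.6 CPM in the knockout-labelled replicates. The knockout-labelled level was 8.52% of control. The differences were of very unequal size, from genes that kept 29.98% (H2-M3) and 20.7% (H2-T22) of their control level to genes with no count at all. In bulk RNA, fewer cells expressing a gene and less RNA per cell cannot be told apart. All 7 genes passed the filter on low counts and an adjusted p of 0.05 as lower in edgeR, against 38.8% of the 15199 genes tested. H2-Q6, H2-Q7 and H2-T24 passed that filter only through their control counts. As the genes were chosen with this contrast known, nothing is read from that count. The groups did not overlap for any of the 7, against 41.4% of all tested genes lying lower without overlap. The median log2 fold change was -4.77 over the 7 genes and -0.04 over all tested genes.

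**Figure D2:**
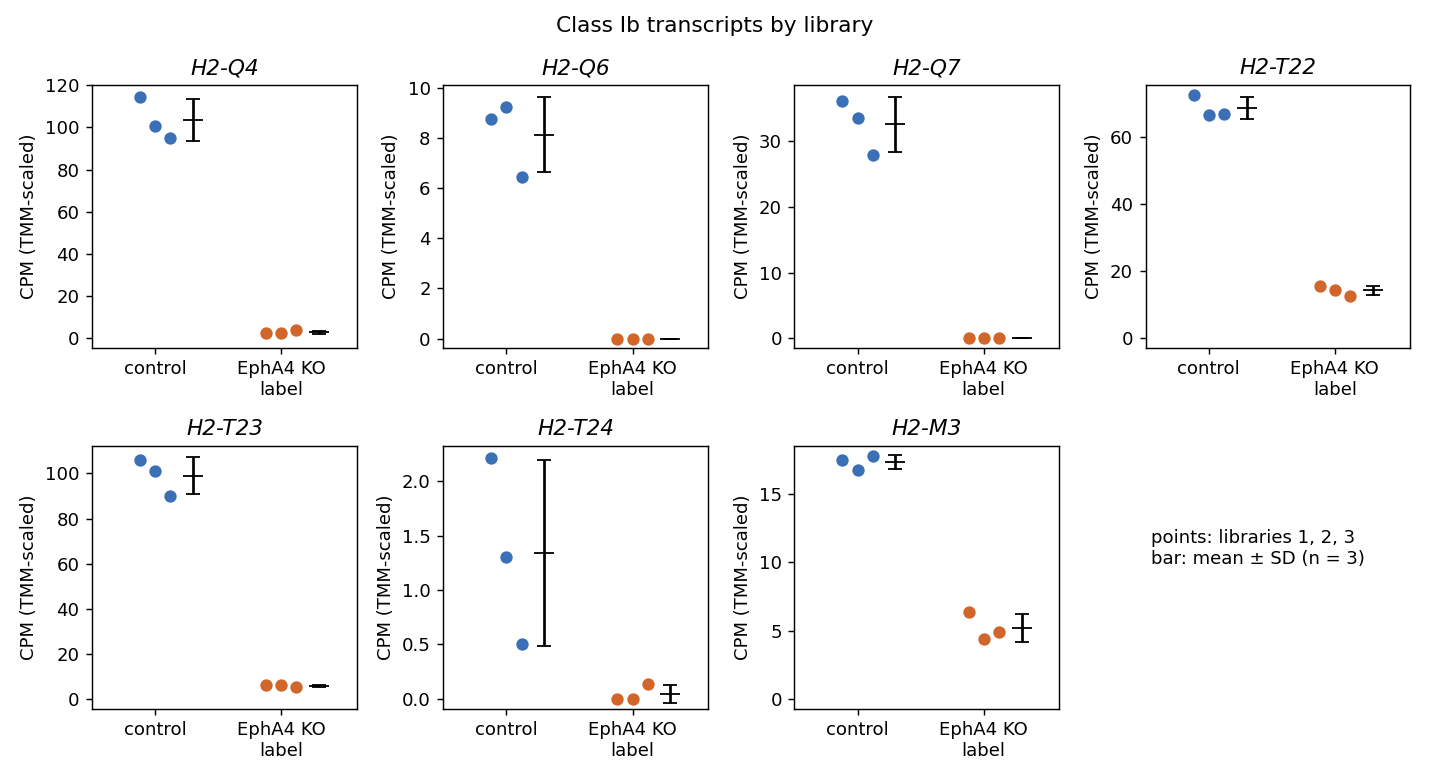
TMM-scaled CPM (y axis, linear and starting near 0) of each class Ib gene in the 3 control (blue) and 3 knockout-labelled (orange) libraries, with bars for mean ± SD (n = 3). Every orange point lies below every blue point in all 7 panels, and H2-Q6 and H2-Q7 are at 0 in the orange group.

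Among the Q cluster genes, H2-Q7 and H2-Q6 were not detected in the knockout-labelled libraries. H2-Q7, which encodes a Qa-2 protein, had 1337, 1185 and 1164 counts in control, against 0, 0 and 0 in knockout-labelled libraries. Its control level was 32.5 ± 4.17 CPM (SD, n = 3), and the difference was at least 1178-fold when 3 counts were taken for the whole knockout-labelled group. Without EphA4 knockout replicate 3 that bound was 783-fold, since fewer counts stand behind it. H2-Q6 had 324, 326 and 268 counts in control and again 0, 0 and 0, at least 293-fold lower from 8.13 ± 1.496 CPM (SD, n = 3), or 195-fold without that library. Such floors cover counting error only. Control replicate 3 was the lowest control library for both genes.

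H2-Q4 was the most abundant of the 7 in control and kept a low level. Its counts were 4247, 3552 and 3969 in control, against 93, 88 and 138 in knockout-labelled libraries. The level went from 103 ± 9.98 to 2.91 ± 0.74 CPM (SD, n = 3 each), a 35.5-fold difference (log2 fold change -5.15, SE 0.15). EphA4 knockout replicate 3 was the highest of its group at 3.76 CPM against 2.60 and 2.39 CPM. The difference was 41.5-fold without that library. The upstream window of H2-Q4 holds the interferon-type letters. In place of the exact kB letters of H2-Q6 and H2-Q7 it has ggggatttccc, the same letters with an added t. Whether these letters have a part in the level kept was not tested.

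Of the T region genes, H2-T23, which encodes Qa-1, had 3927, 3569 and 3749 counts in control, against 219, 222 and 190 in knockout-labelled libraries. The 3 libraries of each group lay close together, at 99.0 ± 8.19 and 5.77 ± 0.52 CPM (SD, n = 3 each), and differed 17.2-fold (log2 fold change -4.10, SE 0.09), or 16.3-fold without EphA4 knockout replicate 3. Its window was the one with the fewest matches, a single CCAAT box. H2-T22 had 2691, 2348 and 2793 counts in control, against 555, 534 and 466 in knockout-labelled libraries, or 68.7 ± 3.38 and 14.2 ± 1.44 CPM (SD, n = 3 each). It was 4.83-fold lower (log2 fold change -2.27, SE 0.08), or 4.58-fold without that library, and the groups lay far apart.

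H2-T24 was the least abundant of the 7 and the least even. Its counts were 82, 46 and 21 in control, against 0, 0 and 5 in knockout-labelled libraries. All 5 counts came from EphA4 knockout replicate 3. The ratio of the summed counts was 28.6, with an exact 95% binomial interval of 11.98 to 89.3 that covers counting error only. The fitted log2 fold change was -4.77 (SE 1.04). Without that library the remaining counts were 0 and 0, and the difference was at least 31.6-fold. The log2 fold change fitted then, -8.62, depends on the prior count and gives no size.

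H2-M3, the gene for the molecule that presents formylated peptides, differed least. Its counts were 648, 592 and 739 in control, against 227, 161 and 179 in knockout-labelled libraries, or 17.3 ± 0.50 and 5.19 ± 1.03 CPM (SD, n = 3 each). This was a 3.34-fold difference (log2 fold change -1.74, SE 0.15), or 3.23-fold without EphA4 knockout replicate 3. The control libraries spread little, and the knockout-labelled ones ranged from 4.36 to 6.35 CPM without reaching the lowest control value of 16.8 CPM.

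Levels were compared between genes only after division by exon length, as CPM per kilobase of merged exons. In control the order was H2-Q4 at 39.9 ± 3.84, H2-T23 at 34.3 ± 2.83, H2-T22 at 20.1 ± 0.99, H2-M3 at 12.05 ± 0.35, H2-Q7 at 7.62 ± 0.98, H2-Q6 at 3.90 ± 0.72 and H2-T24 at 0.61 ± 0.39 CPM per kilobase (SD, n = 3 each). The library ranges of neighbours in this order did not overlap, although the nearest values of H2-Q4 (36.69) and H2-T23 (36.67) were almost equal and their means lay within the summed SDs. In the knockout-labelled libraries the order was different. H2-T22 came first at 4.17 ± 0.42 CPM per kilobase and H2-M3 next at 3.61 ± 0.72, and their ranges overlapped. H2-T23 followed at 2.00 ± 0.18 and H2-Q4 at 1.12 ± 0.28 CPM per kilobase (SD, n = 3 each). The last in order were H2-T24 at 0.02 and H2-Q7 and H2-Q6 at 0. H2-K1, for scale, had 318 ± 19.1 and 36.9 ± 1.48 CPM per kilobase in the 2 groups.

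The reads of these genes cannot all be assigned with certainty, because class I genes resemble one another and how reads were counted and whether by strand is not given in the sources. The share of distinct 100-base stretches of a gene's GENCODE M21 transcripts that also occur in transcripts of another H2 gene was 11.9% for H2-Q7, 10.1% for H2-Q6, 8.38% for H2-T22, 1.61% for H2-T23, 1.16% for H2-Q4 and 0% for H2-T24 and H2-M3. With 50-base stretches the shares were 25.1%, 27.01%, 34.4%, 11.3%, 16.5%, 1.24% and 0.576% in the same order. Among H2 genes, the copies that shared most 100-base stretches with H2-Q7 were H2-Q10, H2-Q5 and H2-Q6, and for H2-T22 it was H2-T10. H2-M3 and H2-T24 had the smallest shares at both lengths. H2-Q8 and H2-Q9, close relatives of H2-Q6 and H2-Q7, are not among the gene symbols counted. How any reads from them were assigned is therefore not known. Counted over all other genes, the 100-base shares were 31.5% for H2-T22, 14.1% for H2-Q4, 13.0% for H2-Q6, 11.98% for H2-Q7 and 3.15% for H2-T23. Most of it for H2-T22 and H2-Q4 came from overlapping gene models, A930015D03Rik (24.01%) and Gm11131 (11.8%), whose exons lie on the opposite strand. These had 19 to 66 and 41 to 60 counts in control, far fewer than the genes they overlap. In the knockout-labelled libraries A930015D03Rik had 29, 29 and 31 counts, beside 555, 534 and 466 for H2-T22. Gm11131 had 4, 0 and 18 there, beside 93, 88 and 138 for H2-Q4, so its part was largest in EphA4 knockout replicate 3.

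Differences remained when copies counted under other symbols were summed. Such sums cannot bring back reads that were left uncounted, as those of H2-Q8 and H2-Q9 may be. H2-Q6, H2-Q7 and the other H2-Q symbols without H2-Q4 summed to 1786, 1643 and 1530 counts in control, against 2, 0 and 3 in knockout-labelled libraries, a 955-fold difference (log2 fold change -9.80, SE 0.30). H2-Q6 and H2-Q7 made up most of that sum in control, so it could change little, and its ratio rests on few knockout-labelled counts. The sum with H2-Q4 differed 49.8-fold, and H2-T22 with H2-T10 differed 4.90-fold. The last 2 sums were chosen after the data were seen.

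Beyond the 7 genes, the table held 21 other class Ib symbols, namely the numbered ones of the Q, T and M series and H2-Bl. Of these 14 had any count and 4 were tested. All 4 fell, against 38.8% of all tested genes, but nothing is read from that share. H2-Q5, H2-T10 and H2-M10.4 passed the filter on low counts only through their control counts. The T region pseudogene H2-T-ps, which has no number and lies outside that list, was tested too and fell (log2 fold change -6.59, adjusted p = 6.3e-05 in edgeR), with 103, 65 and 68 counts in control against 2, 0 and 0. It was picked after its values were seen, and it too passed that filter only through its control counts. H2-Q5 (log2 fold change -6.44, adjusted p = 9.3e-05 in edgeR) had 115, 105 and 80 counts in control, against 0, 0 and 3 in knockout-labelled libraries, a 95.9-fold ratio with an exact 95% interval of 32.5 to 468. H2-T10 (-5.68, adjusted p = 0.00024 in edgeR) had 48, 43 and 34 against 2, 0 and 0 counts. H2-M10.4 (-3.995, adjusted p = 0.0044 in edgeR) had 25, 26 and 39 against 5, 0 and 0 counts, and H2-Bl (-2.07, adjusted p = 0.0002 in edgeR) had 89, 95 and 119 against 18, 26 and 25. The untested H2-Q2, H2-M5, H2-Q10 and H2-M2 had 31, 18, 16 and 9 counts over the control libraries and 0, 6, 2 and 2 over the knockout-labelled ones. Each of these symbols had fewer control counts than any of the 7 but H2-T24.

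The classical genes fell as well, and by sizes in the middle of the class Ib range. H2-K1 had 37013, 31791 and 37619 counts in control, against 4031, 4012 and 3823 in knockout-labelled libraries, an 8.61-fold fall (log2 fold change -3.11, SE 0.06, adjusted p = 1.5e-09 in edgeR). H2-D1 fell 10.1-fold, from 724 ± 23.1 to 71.5 ± 3.12 CPM (SD, n = 3 each). Within each library the 7 class Ib genes together had 20.5%, 20.3% and 19.0% as many counts as H2-K1 and H2-D1 in control, against 16.3%, 15.2% and 15.4% in knockout-labelled libraries. Single genes went opposite ways relative to H2-K1. H2-T22 had 7.27% to 7.42% as many counts as H2-K1 in control against 12.2% to 13.8% in knockout-labelled libraries, and H2-M3 1.75% to 1.96% against 4.01% to 5.63%. H2-Q4 had 10.6% to 11.5% and then 2.19% to 3.61%, and H2-T23 9.97% to 11.2% and then 4.97% to 5.53%.

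**Figure D3:**
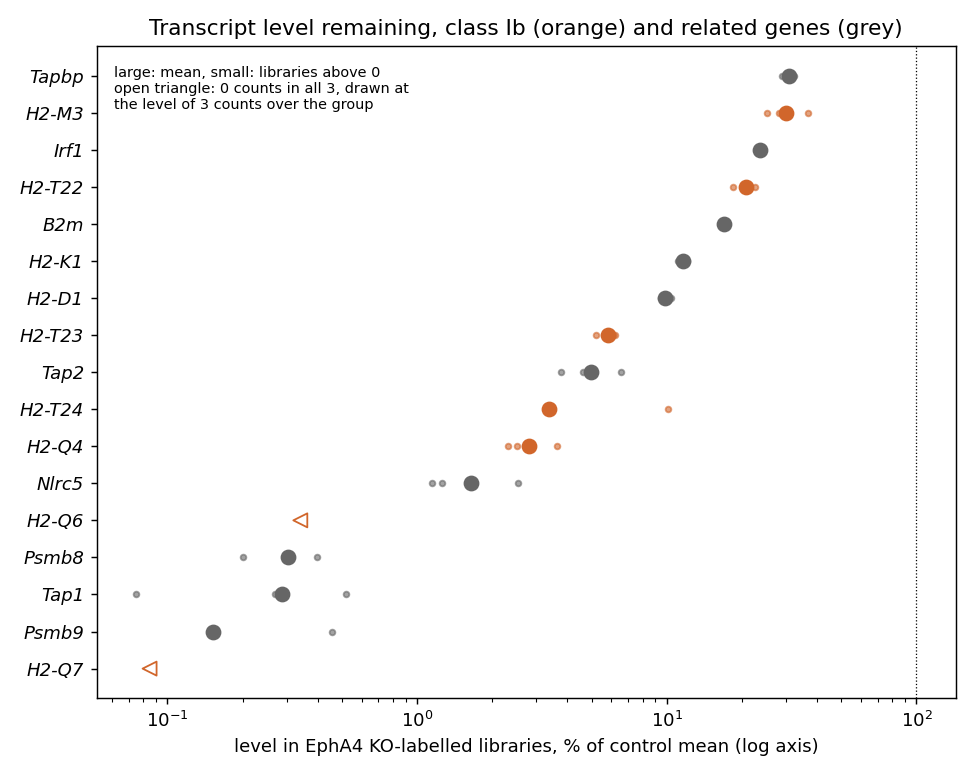
Level in the knockout-labelled libraries as a percent of the control mean (x axis, log scale) for the 7 class Ib genes (orange) and related genes (grey); large symbols are means, small ones single libraries above 0, and open triangles mark genes with 0 counts, drawn at the floor of 3 counts over the group. H2-M3 and H2-T22 lie at 29.98% and 20.7%, above H2-K1 at 11.6%, and H2-T23 and H2-Q4 lie below it at 5.83% and 2.82%.

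The genes that load class I molecules were mostly lower. Of 14 tested, 11 fell, 1 rose and 2 did not pass, against 38.8% of all tested genes called lower and 32.7% called higher, with a median log2 fold change of -1.71. B2m, the light chain shared by all class I molecules, fell 5.88-fold from 1292 ± 54.5 to 220 ± 4.49 CPM (SD, n = 3 each, adjusted p = 1.3e-09 in edgeR). The peptide transporter genes Tap1 and Tap2 fell by 8.41 and 4.32 on the log2 scale. The immunoproteasome gene Psmb8 fell by 8.31, and Psmb9 kept 2 counts, a 646-fold ratio with an exact 95% interval of 178 to 5339. Tap1, Psmb8 and Psmb9 passed the filter on low counts only through their control counts. Exons of Psmb9 and Tap1 overlap on opposite strands, so their reads cannot be told apart without a strand setting. Tapbp, the gene of the tapasin bridge, fell from 281 ± 29.9 to 87.0 ± 5.10 CPM. The chaperone gene Canx rose (log2 fold change 0.59), while Calr (0.11) and Erap1 (-0.14) did not pass. Pdia3 passed near the threshold (log2 fold change -0.10, adjusted p = 0.029 in edgeR). The count of loading genes that fell was 10 with RLE scaling factors, with the replicate block or with any 1 library left out. It was 12 with no filter.

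Among 22 regulators of class I genes, 12 fell, 6 rose and 4 did not pass, against 38.8% of all tested genes called lower and 32.7% called higher. Their median log2 fold change was -0.57. Nlrc5, the class I transactivator gene, had the largest change of the 22. Its counts were 1289, 1318 and 1421 in control, against 16, 15 and 33 in knockout-labelled libraries, a 60.6-fold fall (log2 fold change -5.91, SE 0.23, adjusted p = 6.9e-08 in edgeR). The interferon signalling genes Irf9 and Stat2 fell by 3.29 and 2.94 on the log2 scale, and Irf1 by 2.08. The genes of the factors that NLRC5 works with went both ways. Rfx5 fell (-1.46), Rfxap (0.09) and Rfxank (-0.04) did not pass, and the CCAAT-binding subunit genes Nfya and Nfyc rose (0.39 and 1.04). The kB factor genes Rela and Nfkb1 rose as well (0.60 and 0.40).

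Other genes of the same chromosomal region did not fall as a group. Of 37 genes listed that are not class I genes but lie in or beside the Q, T and M clusters, 31 were tested. Of these 13 fell, 13 rose and 5 did not pass, with a median log2 fold change of 0.01, and the share that fell is near the 38.8% of all tested genes. Ier3, an immediate early gene, fell by 2.13 on the log2 scale. Gabbr1, a subunit of the GABA B receptor, fell by 2.05, and the zinc finger gene Zfp57 by 1.95. Ppp1r10, a regulator of protein phosphatase, was at 29.8 ± 1.01 CPM in control and rose to 141 ± 2.31 CPM (SD, n = 3 each), a 4.72-fold change.

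**Figure D4:**
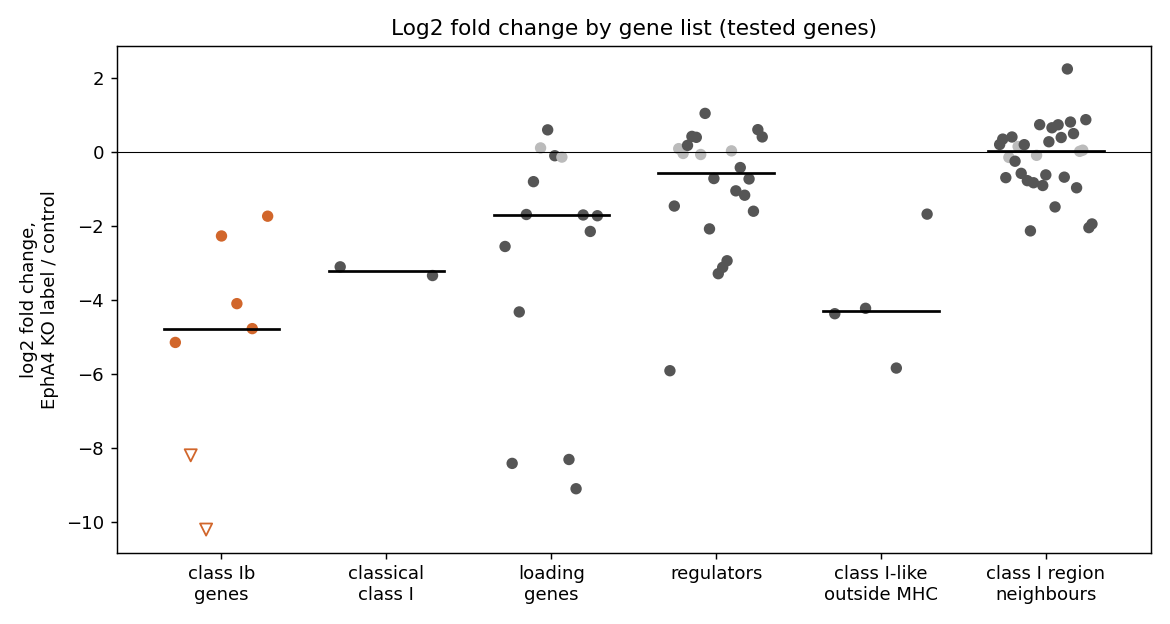
Log2 fold change (y axis) of the tested genes of 6 lists, with a line at each list's median. Light grey points did not pass the test, while dark grey points passed it, as did the class Ib genes (orange). Open triangles are genes with 0 counts in the knockout-labelled libraries, drawn at their bound. The class Ib genes have a median of -4.77, the loading genes of -1.71 and the neighbours in the class I region of 0.01.

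Over the 6 libraries, the profile of the summed class Ib counts was compared with 9606 tested genes of at least moderate abundance (average log2 CPM of 3), each centred on its control mean. The closest were Tjp3, Lgals9, Tspan8, Vat1 and Prune2, with root mean square distances of 0.10, 0.11, 0.12, 0.13 and 0.15 on the log2 scale. None of the 5 is on chromosome 17. Lgals9, which encodes the lectin galectin-9, went from 226 ± 20.6 to 20.7 ± 0.50 CPM (SD, n = 3 each). The log2 fold changes of these 5 genes ran from -3.62 to -3.45, and that of the summed class Ib counts was -3.55. With 6 libraries in 2 groups, the measure follows mostly the size of that difference.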

How the data were processed

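RNA-seq counts of 6 MOC2 libraries were used. The authors deposited raw counts per gene symbol, with no normalization. The submitters' processing notes name STAR and GRCm39, while the annotation, the counting tool and its strand setting are not given in the sources. All 55418 symbols are those of GENCODE M21, which gave chromosomes, exon lengths and transcripts. Promoters came from RefSeq (GRCm38.p6). The members and gene lists were chosen with earlier results of these data known.

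Genes were filtered with filterByExpr (15199 kept), scaled by TMM and tested with edgeR 4.0.16 in R 4.3.3 (quasi-likelihood F-test, two-sided, with no covariate beside the group). Calls rest on Benjamini-Hochberg adjusted p-values at 0.05 over all genes tested. Each SE was obtained by dividing the size of the log2 fold change by the square root of F. The scripts were tested on simulated data. Genes with 0 counts in a group have a bound against 3 counts over the group. Named were the 7 genes, H2-K1, H2-D1, B2m, Nlrc5, Epha4, other class Ib symbols with at least 10 counts, up to 4 called genes per list by size of change and the 5 closest profiles. Others named beside them (Irf1, Tapbp, Rfx5 and the like) were chosen after their values were seen. Alternatives were other scaling factors, no filter, DESeq2 1.42.0, limma-voom (limma 3.58.1), a replicate block, each replicate left out and summed copies. One gene that the naming rule picked is not reported here. Figures were drawn with matplotlib 3.10.9.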

Additional observations from a re-analysis of the deposited data

How the results depend on the processing

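The 7 class Ib genes were called lower under 13 alternatives, which is no sign of stability, since they were selected on this comparison. The alternatives were 3 other scalings, no filter, DESeq2, limma-voom, the replicate block and the 6 fits that each left out 1 library. The log2 fold change of H2-M3 ran from -1.88 to -1.59, of H2-T22 from -2.34 to -2.14, of H2-T23 from -4.17 to -3.97 and of H2-Q4 from -5.32 to -4.99. That of H2-T24 ran from -5.19 to -4.16 in the fits that kept EphA4 knockout replicate 3. Without that library its fitted value, -8.62, depends on the prior count. Fitted values of H2-Q6 and H2-Q7 also depend on the prior count and are not given. Over all genes the calls ran from 10045 to 11338, beside 10867. With the replicate block 10339 genes, 7 class Ib genes, 10 loading genes and 12 neighbours were called (the last 2 lower). Deviations of same-numbered libraries correlated at -0.003, 0.025 and 0.001, so the samples share only a number. The loading genes called lower were 10 to 12 and the neighbours 12 to 14 over these alternatives. At this depth, no count can be told from a level under 3 counts over 3 libraries.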

Other observations

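Class I-like genes outside the histocompatibility complex were lower too. Of 7 listed, 4 were tested, and all 4 fell, against 38.8% of all tested genes. Hfe, Mr1 and Cd1d1 passed the filter on low counts only through their control counts, so nothing is read from that share. Procr, the endothelial protein C receptor gene, fell 3.21-fold from 710 ± 19.9 to 221 ± 2.71 CPM (SD, n = 3 each, adjusted p = 3.1e-09 in edgeR). Hfe, whose protein limits iron uptake, had 135, 132 and 176 counts in control, against 5, 1 and 1 in knockout-labelled libraries, a 59.8-fold fall. Mr1, which presents vitamin B metabolites, fell 19.0-fold, and Cd1d1, which presents lipids, fell 21.3-fold, both from under 4 CPM. Of 11 class II genes listed, 3 were tested, each at under 8 CPM, and 2 of the 3 fell. Cd74, the invariant chain gene, had 132, 95 and 100 counts in control and 6, 9 and 5 under the knockout label (log2 fold change -3.96, adjusted p = 1.5e-05 in edgeR). It passed the filter only through its control counts. H2-DMb1, a subunit of the peptide-exchange protein DM, fell by 2.08 on the log2 scale, and H2-DMa, its partner chain, did not pass (log2 fold change 0.05). H2-Ab1 had 32, 5 and 35 counts in control and 0 in each knockout-labelled library.

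The class I pseudogene H2-K2 and the class I-like gene Gm8909, both picked after their values were seen, were also lower. H2-K2 had 652, 507 and 643 counts in control, against 32, 31 and 28 in knockout-labelled libraries, and Gm8909 had 86, 78 and 74 and then 9, 4 and 0.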
